A study of Mus musculus with 6 samples.

Results

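The genes described here are 10 that encode inflammatory signals a kidney tubule cell can send to its surroundings: the chemokines Cxcl1, Cxcl2, Cxcl5, Cxcl10, Ccl2 and Ccl5, the colony-stimulating factors Csf1 and Csf2, the cytokine Il6, and Ptgs2, the inducible cyclooxygenase. They were found by their gene name among the non-control spots of the arrays, which gave 14 probes and 51 spots for the 10 genes out of 55681 probes and 59305 spots for 34797 gene names. RNA was measured in mProx24, a line of mouse kidney proximal tubular cells from strain C57B6, on 6 single-colour Agilent arrays with 1 array per condition. Control cells were kept at 20% oxygen without added stimulus. The labels name 2 single stimuli at 20% oxygen, high glucose and high FFAs (free fatty acids, given as 150 µM palmitate on 0.15% bovine serum albumin for 9 hours), and 1 single stimulus at 1% oxygen, hypoxia, for 12 hours before that time. Triple stimuli joined high glucose, palmitate and 1% oxygen, and the last condition added 0.4 µg/ml of the mTORC1 inhibitor rapamycin, given for 12 hours ahead of the palmitate. The sources used here give no glucose concentration, no passage or clone of the line, no vehicle for rapamycin, and no word on whether 1% oxygen went on during the hours of palmitate.

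The arrays of high glucose and high FFAs carry opposite labels in the scanner files and in the deposited value table. Array A is the one whose scanner file reads high glucose while the table's column reads high FFAs, and array B the reverse, and which stimulus each received is not stated here. The 3 arrays at 20% oxygen lay on the first row of 1 slide and the 3 at 1% oxygen on the second, so oxygen and the row of the slide cannot be told apart. Of the non-control spots, 40.3% to 43.8% per array were well above background as the scanner software judged them, and 0 were saturated. A list of 15 markers used for the proximal tubule was checked, and not all of them are particular to that cell type. Of the 15, 8 were well above background on all 6 arrays, among them Aqp1, Lrp2, Cubn, Krt8, Krt18 and Cdh16. Another 6 were well above background on none (Slc34a1, Slc5a2, Slc22a6, Anpep, Hnf4a and Cdh1). Of 10 leukocyte and macrophage markers, 5 were well above background on all 6 arrays (Cd68, Itgam, Csf1r, Cd14 and Cd3e) and 5 on none, among them the pan-leukocyte gene Ptprc. With 1 array per condition there is no replicate spread, no p-value is given, and precision is limited by the number of arrays.

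Tubule cells under stress secrete chemokines that draw leukocytes to the kidney. Cxcl1, Cxcl2 and Cxcl5 encode ligands of the receptor CXCR2 and attract neutrophils, Ccl2 attracts monocytes through CCR2, and Cxcl10 and Ccl5 attract activated T cells. Csf1 and Csf2 sustain macrophages and granulocytes, Il6 encodes a cytokine of the acute phase response, and Ptgs2 converts arachidonic acid to the precursor of the prostaglandins. Transcription of these genes commonly depends on NF-kB, a factor released from its inhibitors by stress and cytokine signals, and several of their mRNAs carry AU-rich elements that shorten their life.

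The sequence just before the start of the gene is shown for 6 of the genes, because genes with and without the NF-kB consensus there occur among those with the largest differences below. RefSeq promoter windows (build GRCm38.p6) matched 7 of the 10 genes, and Cxcl5, Ccl2 and Ccl5 had no entry. The 250 bases before each start were searched on both strands for the NF-kB consensus, for the AP-1 motif TGANTCA, for the core of the interferon response element (ISRE) and for the core of the HIF motif ACGTG. The last 150 bases are printed 5′ to 3′, with matches in capitals. The 11 capitals of Cxcl1 and Cxcl2 hold 2 overlapping NF-kB matches, 1 on each strand, and the first run of capitals of Cxcl10 holds 2 overlapping matches on the strand shown.
Cxcl1 (chr5:90891095-90891244, + strand): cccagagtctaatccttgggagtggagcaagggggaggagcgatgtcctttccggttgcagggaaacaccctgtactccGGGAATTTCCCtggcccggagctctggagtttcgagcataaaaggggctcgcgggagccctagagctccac
Cxcl2 (chr5:90903749-90903898, + strand): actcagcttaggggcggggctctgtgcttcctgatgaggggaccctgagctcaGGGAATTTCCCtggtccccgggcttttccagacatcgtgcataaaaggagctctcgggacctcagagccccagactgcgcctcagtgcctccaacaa
Cxcl10 (chr5:92348890-92349039, - strand): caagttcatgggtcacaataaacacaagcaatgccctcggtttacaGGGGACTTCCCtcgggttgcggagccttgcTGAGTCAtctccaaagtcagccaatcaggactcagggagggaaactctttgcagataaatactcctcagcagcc
Il6 (chr5:30012964-30013113, + strand): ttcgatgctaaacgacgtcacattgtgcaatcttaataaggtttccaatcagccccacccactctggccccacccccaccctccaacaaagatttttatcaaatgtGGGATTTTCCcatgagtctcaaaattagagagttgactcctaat
Csf2 (chr11:54249900-54250049, - strand): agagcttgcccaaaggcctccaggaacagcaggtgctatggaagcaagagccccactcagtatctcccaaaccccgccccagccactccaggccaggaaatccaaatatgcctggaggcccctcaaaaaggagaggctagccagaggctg
Ptgs2 (chr1:150099881-150100030, + strand): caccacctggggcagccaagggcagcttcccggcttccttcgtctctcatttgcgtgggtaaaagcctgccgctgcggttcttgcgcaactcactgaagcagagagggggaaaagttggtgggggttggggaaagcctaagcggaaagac

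The NF-kB consensus occurred in 5 of the 7 windows (Cxcl1, Cxcl2, Cxcl10, Csf1 and Il6), against 7.25% of the 32851 windows of the same length in the RefSeq table. Its first base lay 71 bases before the start in Cxcl1, 97 in Cxcl2 and 44 in Il6, and the longest run shared by the Cxcl1 and Cxcl2 windows was GGGAATTTCCCTGG, 14 bases that begin with the NF-kB match. In Csf1 the match lay 154 bases before the start, outside the stretch of 150 bases. A further Cxcl10 match, 159 bases before the start, also lay outside it. TGANTCA occurred in 2 of 7 (Cxcl10 and Il6) against 6.75% of all windows, the ISRE core in 1 of 7 (Cxcl10) against 2.98%, and ACGTG in 1 of 7 (Cxcl1) against 16.6%. Of these, TGANTCA in Il6 (249 bases before the start), the ISRE core (213) and ACGTG (196) lay outside the printed stretch. The 250 bases searched in Csf2 and Ptgs2 held none of the 4 motifs. Bases farther from the start were not searched, so sites elsewhere in these genes are not excluded. A match is a stretch of letters and not a shown binding site, and binding was not measured.

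Levels are given as the log2 processed signal of a spot minus the log2 of its array's 75th percentile over non-control spots, averaged over the spots of a probe, so that 0 is the level of a fairly bright spot. A difference of 2 arrays counts as called at 1 or more on this scale, which is 2-fold. A gene is measured in a comparison when its probe is well above background on 1 or both arrays. Where the other array is not, its level is raised to that array's lowest signal still well above background and the difference is a bound. If the raised level exceeds that of the brighter array, the difference is set to 0 and says nothing about change. Levels of different probes are not compared with each other, since probes differ in brightness for the same amount of RNA. In bulk RNA, fewer cells of a type and less RNA per cell cannot be told apart. Csf2, Ptgs2, Ccl2 and the brightest Csf1 probe were each printed 10 times across the array, which gives a technical spread: over the 218 to 225 probes with 10 spots that were well above background on both arrays of a comparison, the median SD of the spot-by-spot difference was 0.068 to 0.084.

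**Figure D1:**
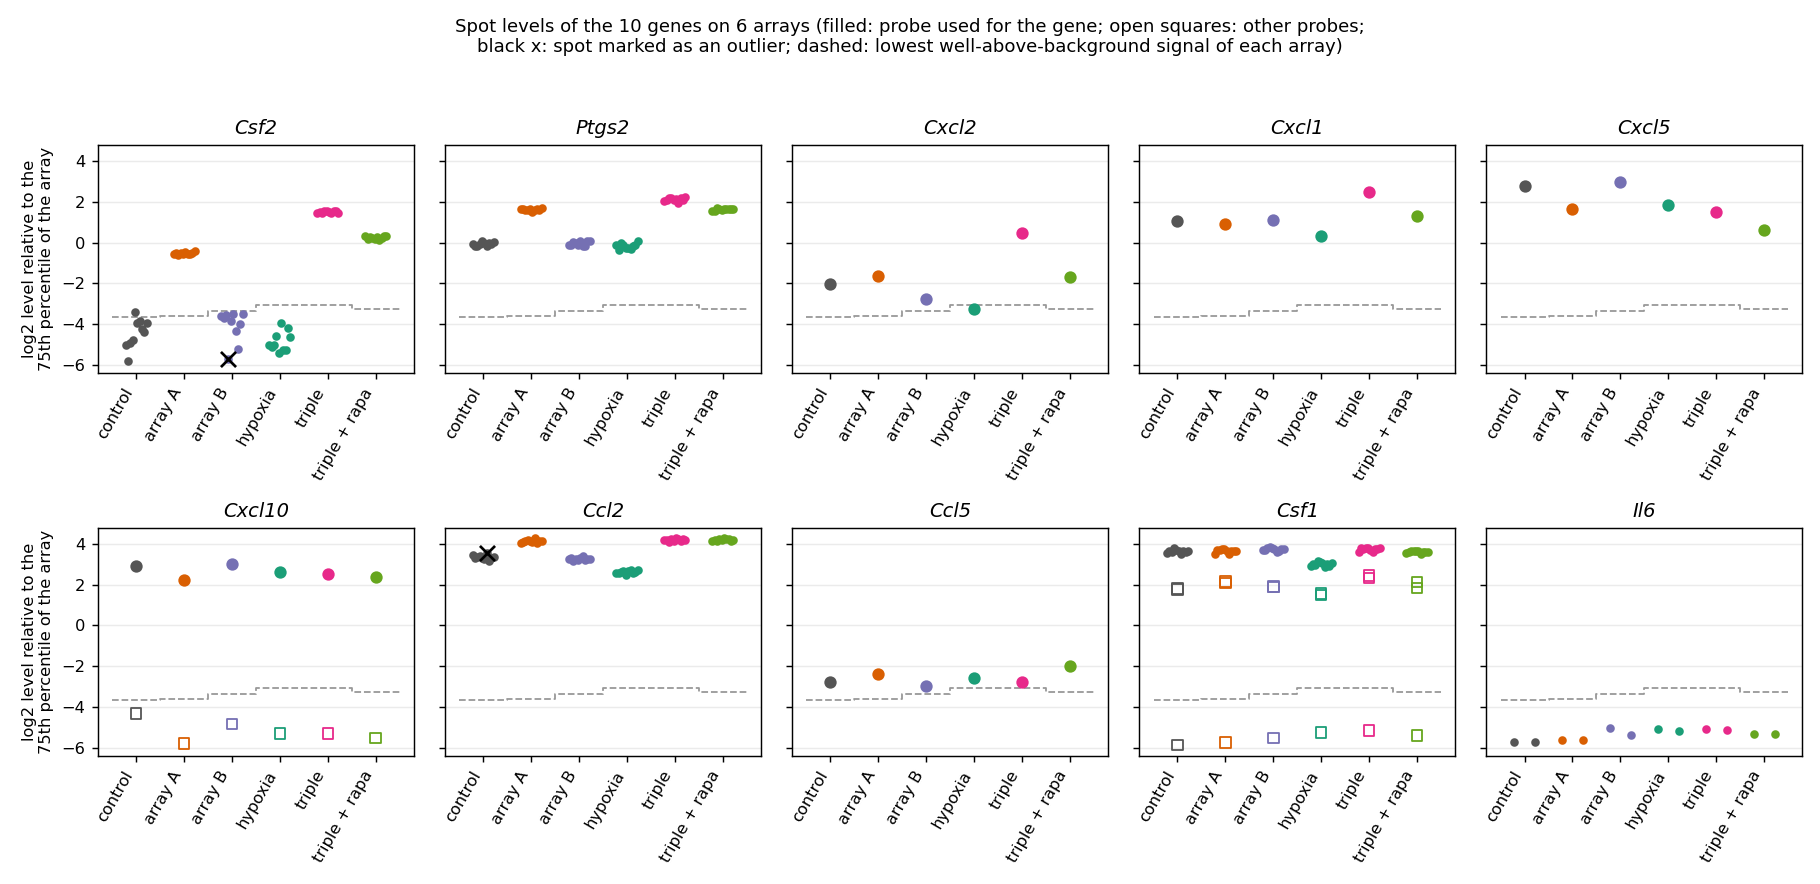
Log2 level of each spot of the 10 genes (vertical axis, relative to the 75th percentile of its array) on the 6 arrays (horizontal axis). Filled points are spots of the probe used for the gene, open squares spots of its other probes, crosses spots marked as outliers, and the dashed line the lowest well-above-background signal of each array; the mean of Csf2 lies below that line in control, on array B and in hypoxia, and its spots lie between -0.62 and 1.57 on the other 3 arrays.

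In triple stimuli against control, 4 of the 9 measured genes were at least 2-fold higher (Csf2, Cxcl2, Ptgs2 and Cxcl1) and 1 was at least 2-fold lower (Cxcl5), where 6.86% of the 17811 gene names measured in that comparison were called in either direction, 5.11% higher and 1.75% lower. The median difference of the 9 genes was 0.87, against -0.01 over all gene names. Ccl2 lay below the 2-fold line at 0.87, and Cxcl10, Ccl5 and the brightest Csf1 probe differed by 0.42 or less in size. Il6 was not well above background on any array.

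**Figure D2:**
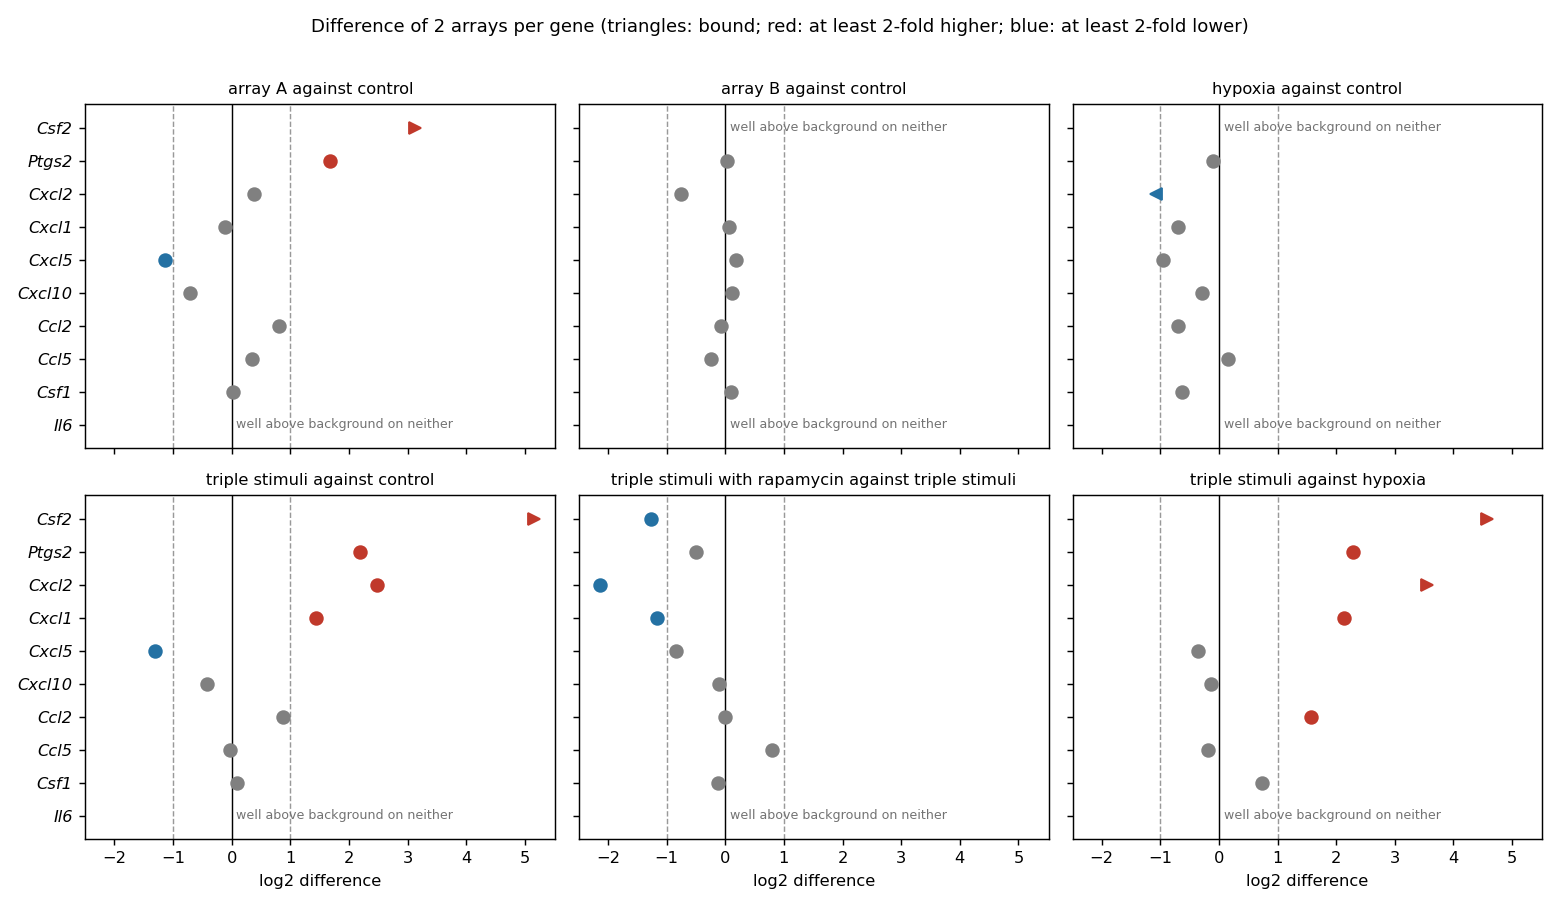
Log2 difference (horizontal axis) of each of the 10 genes (vertical axis) in 6 comparisons of 2 arrays each. Points are measured differences, triangles bounds, and dashed lines mark 2-fold; in triple stimuli against control Csf2, Cxcl2, Ptgs2 and Cxcl1 lie above the upper line and Cxcl5 below the lower one.

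The neutrophil chemokines did not move together. Cxcl1 and Cxcl2 were higher in triple stimuli than on the other 5 arrays, and both were lower again with rapamycin, while Cxcl5, which binds the same receptor, was lower in triple stimuli and lower still with rapamycin. The level of Cxcl1 (probe on mm9 chromosome 5, 91321845 to 91321904) was 1.04 in control, 0.93 and 1.10 on arrays A and B, 0.34 in hypoxia, 2.47 in triple stimuli and 1.31 with rapamycin. Its single-stimulus arrays at 20% oxygen thus lay within 0.11 of control, hypoxia lay below control, and triple stimuli stood alone at the top. The difference of triple stimuli was 1.44 against control (2.71-fold higher) and 2.14 against hypoxia (4.39-fold higher), and the array with rapamycin was 2.24-fold below triple stimuli (difference -1.16).

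Cxcl2 (chromosome 5, 91334534 to 91334593) had levels of -2.01 in control, -1.63 and -2.77 on arrays A and B, -3.24 in hypoxia, where it was not well above background, 0.46 in triple stimuli and -1.66 with rapamycin. Only triple stimuli was above -1.63, and the array with rapamycin lay beside array A. The difference of triple stimuli from control was 2.48 (5.56-fold higher), that from hypoxia at least 3.54 (at least 11.7-fold higher), and that of rapamycin from triple stimuli -2.13 (4.37-fold lower). Hypoxia against control was a bound of -1.07 or lower. With the normexp background correction the hypoxia difference was -0.35 and not called, and triple stimuli was 1.80 above control and 2.15 above hypoxia, both called.

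Cxcl1 and Cxcl2 each rest on 1 spot, in rows 289 and 290 of the 384 rows of the array. Position is given because calls were unevenly spread over the array: in the first 64 rows of spots 11.13% of gene names were called higher in triple stimuli against control and in the last 64 rows 3.14%. In rows 257 to 320, which hold both spots, 3.04% were called higher in triple stimuli, and 0.21% were called lower with rapamycin against triple stimuli.

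Cxcl5 (chromosome 5, 91190490 to 91190549, 1 spot) was at 2.78 in control, 1.64 and 2.97 on arrays A and B, 1.83 in hypoxia, 1.48 in triple stimuli and 0.63 with rapamycin. Control and array B were the highest, and the other 4 arrays lay 0.95 or more below control. Array A was 2.21-fold lower than control (difference -1.14), triple stimuli 2.47-fold lower (-1.30) and triple stimuli with rapamycin 4.43-fold lower (-2.15), and hypoxia at -0.95 stayed short of the 2-fold line. Against hypoxia, triple stimuli differed by -0.35 for Cxcl5.

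Cxcl5, Cxcl1 and Cxcl2 belong to 1 chemokine cluster on mm9 chromosome 5, and the gene names with a probe within 250 kb of it were read after the values of the 3 genes had been seen. The Cxcl1 and Cxcl2 probes lie 12.7 kb apart, and the Cxcl5 probe 131 kb from Cxcl1. Ppbp, which encodes a platelet chemokine that is also a CXCR2 ligand, has its probe next to that of Cxcl5 and was at 1.29 in control, -0.15 and 1.52 on arrays A and B, 1.42 in hypoxia, -0.16 in triple stimuli and -0.81 with rapamycin. Its levels on array A and in triple stimuli lay below control, as those of Cxcl5 did, while in hypoxia Ppbp differed from control by 0.14 and Cxcl5 by -0.95. At the other end of the window Areg, which encodes the growth factor amphiregulin, was at -1.38 in control, 0.31 and -1.41 on arrays A and B, -1.92 in hypoxia, 1.84 in triple stimuli and 0.42 with rapamycin. Areg was thus highest in triple stimuli like Cxcl1 and Cxcl2, but unlike them it was also more than 2-fold higher on array A (1.69). Pf4, Cxcl3 and Cxcl15, further chemokine genes between Cxcl5 and Cxcl1, were not well above background on any array. Of the 18 gene names in the window, 9 were measured in triple stimuli against control. Ereg, well above background on 2 arrays, was at least 1.33 higher there, and with rapamycin against triple stimuli it gave a bound of -0.94. Rassf6 (-0.66) and Mthfd2l (-0.47) were not called in triple stimuli, and Afm gave a bound of 0.

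Csf2, which encodes the granulocyte and macrophage growth factor GM-CSF, had the largest difference of the 10 genes in triple stimuli against control. It was not well above background in control, on array B and in hypoxia, was clearly measured on array A, and was highest in triple stimuli. Its probe (mm9 chromosome 11, 54060772 to 54060799 as the files give it, shorter than the 60 bases of the probe) was at -4.43 in control, -0.52 and -3.91 on arrays A and B, -4.85 in hypoxia, 1.5 in triple stimuli and 0.24 with rapamycin. All 10 spots were well above background on array A, in triple stimuli and with rapamycin, against 1 of 10 in control, 0 on array B and 0 in hypoxia. The 10 spots lay between -0.62 and -0.40 on array A, between 1.45 and 1.57 in triple stimuli and between 0.11 and 0.34 with rapamycin, and no spot of 1 of these 3 arrays overlapped those of another. In control the spots spread from -5.79 to -3.40.

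Against control, Csf2 was at least 8.77-fold higher on array A (difference at least 3.13) and at least 35.6-fold higher in triple stimuli (at least 5.15). Against hypoxia, triple stimuli was at least 23.9-fold higher. Rapamycin against triple stimuli gave a difference of -1.26, which is 2.40-fold lower, with the 10 spots between -1.36 and -1.11, and the level with rapamycin was still at least 14.8-fold above control. Array B and hypoxia were not compared with control, since neither side was well above background. With the normexp background correction the differences were 1.79 on array A, 3.49 in triple stimuli and 3.06 in triple stimuli against hypoxia, and all 3 were called, so the bounds above hold for the main background correction and not for that one.

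One Csf2 spot on array B (row 174) was marked by the scanner software as an outlier of its probe at -5.69. It was left out of the mean of array B, which was -4.09 with it, and it touches no comparison of Csf2 in which a value is given. The spots lay between rows 13 and 380, so the difference of array A and of triple stimuli was seen from the top to the bottom of the array.

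**Figure D3:**
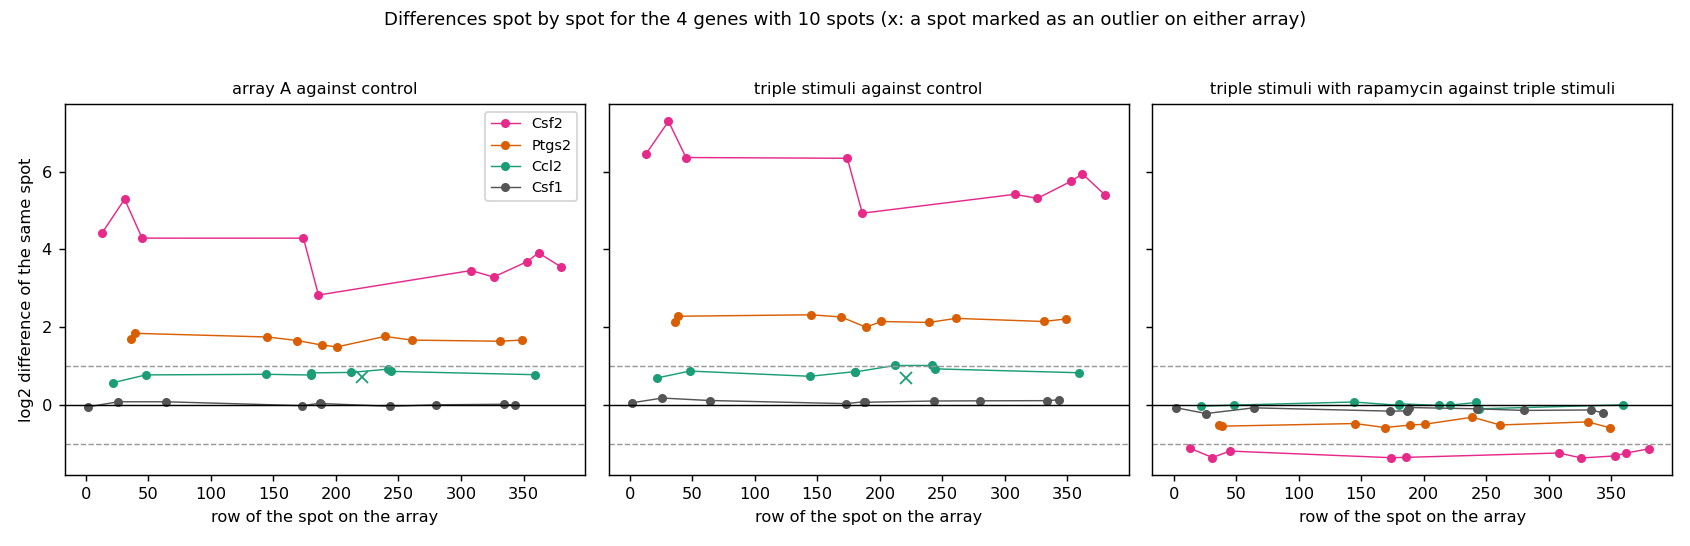
Log2 difference of the same spot between 2 arrays (vertical axis, levels as measured) against the row of the spot (horizontal axis) for the 4 genes with 10 spots. Csf2, Ptgs2 and Ccl2 lie above 0 in every spot on array A and in triple stimuli against control, and with rapamycin against triple stimuli the Csf2 spots lie between -1.36 and -1.11 and the Ptgs2 spots below 0.

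Csf1, which encodes the macrophage growth factor M-CSF, was lowest in hypoxia and near control elsewhere on its brightest probe (mm9 chromosome 3, 107544333 to 107544392, 10 spots). The level was 3.63 in control, 3.65 and 3.73 on arrays A and B, 2.99 in hypoxia, 3.73 in triple stimuli and 3.60 with rapamycin. The spots in hypoxia, 2.85 to 3.13, did not overlap those of any other array, whose lowest spot was at 3.48. Hypoxia against control was -0.64 (1.55-fold lower), short of 2-fold.

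A pair of further Csf1 probes (107548521 to 107548580 and 107548550 to 107548609, 1 spot each, overlapping in position) gave another order. They were at 1.76 and 1.79 in control, 2.15 and 2.08 on array A, 1.91 and 1.88 on its counterpart array B, 1.55 and 1.48 in hypoxia, 2.45 and 2.33 in triple stimuli, and 2.11 and 1.83 with rapamycin. Triple stimuli was the highest array on both, by 0.69 and 0.54 over control, where the brightest probe differed by 0.10. The fourth Csf1 probe (107553659 to 107553718) was not well above background on any array.

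Il6 has 1 probe with 2 spots (mm9 chromosome 5, 30346367 to 30346426). Its level was -5.72 in control, -5.61 and -5.19 on arrays A and B, -5.13 in hypoxia, -5.09 in triple stimuli and -5.33 with rapamycin, and 0 of its 2 spots were well above background on any array. Differences at this level are not read. Of the receptor genes, Il6st, the shared signal chain of the IL-6 family, and Il6ra, the IL-6 receptor, were well above background on all 6 arrays, and Il6ra was 1.08 higher on array A than in control. The other receptor gene called higher on array A was Cxcr3, the receptor of Cxcl10, with levels of -2.34 in control and 1.79 on array A (4.13 higher) from 1 probe in row 384, and not well above background on the other 4 arrays.

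Ccl2, the monocyte chemokine, had 3 levels: high on array A and both triple stimuli arrays, lower in control and on array B, and lowest in hypoxia. The probe (mm9 chromosome 11, 81850650 to 81850709, 10 spots) was at 3.32 in control, 4.12 and 3.25 on arrays A and B, 2.61 in hypoxia, 4.19 in triple stimuli and 4.19 with rapamycin. Spots ranged from 4.04 to 4.28 over the 3 high arrays, from 3.13 to 3.54 in control and on array B, and from 2.48 to 2.73 in hypoxia, with no overlap between the 3 levels. The outlier mark fell on the highest control spot, 3.54 in row 221, and with it the control mean was 3.34.

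The Ccl2 differences from control were 0.81 on array A (1.75-fold; spots 0.58 to 0.92), -0.70 in hypoxia and 0.87 in triple stimuli (1.83-fold; spots 0.70 to 1.02), all short of 2-fold. Against hypoxia, triple stimuli was 1.57 higher (2.98-fold), which is called. Rapamycin against triple stimuli gave 0.00, unlike the lower values of Csf2, Cxcl1 and Cxcl2 on the same pair of arrays.

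Cxcl10, a chemokine induced by interferons, was not called in any of the 6 comparisons on its bright probe (mm9 chromosome 5, 92775781 to 92775840, 1 spot). The level was 2.91 in control, 2.20 and 3.03 on arrays A and B, 2.63 in hypoxia, 2.49 in triple stimuli and 2.39 with rapamycin. Array A was the lowest, 0.71 below control. The second Cxcl10 probe (92776616 to 92776675) was not well above background on any array. With the mean over both probes the array A difference was -1.09, which would be called.

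Ccl5 (mm9 chromosome 11, 83339296 to 83339355, 1 spot) was dim throughout, at -2.75 in control, -2.41 and -3.00 on arrays A and B, -2.60 in hypoxia, -2.78 in triple stimuli and -1.99 with rapamycin. It was highest with rapamycin, 0.79 above triple stimuli (1.73-fold), and is the only one of the 9 measured genes with a difference above 0.01 in that comparison. Its spot lies in row 18, and in the first 64 rows 7.50% of gene names were called higher and 7.34% lower in that comparison. With the normexp background correction the difference was 0.33.

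Ptgs2, the inducible cyclooxygenase, was higher on array A and in triple stimuli and near control on array B and in hypoxia. Its probe (mm9 chromosome 1, 151954744 to 151954803, 10 spots) was at -0.07 in control, 1.61 and -0.04 on arrays A and B, -0.17 in hypoxia, 2.12 in triple stimuli and 1.62 with rapamycin. The lowest spot of the 3 high arrays was at 1.48 and the highest of the 3 others at 0.09. The difference from control was 1.67 on array A (3.19-fold; spots 1.5 to 1.84), 0.02 on array B, -0.11 in hypoxia and 2.19 in triple stimuli (4.55-fold; spots 2.0 to 2.32). Rapamycin against triple stimuli was -0.50 (1.41-fold lower), below 0 in 10 of 10 spots and short of 2-fold.

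Of 14 genes of prostanoid synthesis, transport and breakdown, 10 were measured in triple stimuli against control. Among them 1 was called, Ptgis, the prostacyclin synthase, at 1.36 higher, where 6.86% of all gene names were called in either direction. Ptgis was a dim probe that was lower with rapamycin than in triple stimuli alone, at a bound of -1.58. The list's median in triple stimuli was 0.08. The constitutive cyclooxygenase Ptgs1 differed by -0.54 and the prostaglandin E synthase Ptges by -0.02. On array A, Pla2g4a, the phospholipase that releases arachidonic acid, differed by 0.54 and Ptgds, a prostaglandin D synthase, by 1.72.

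On array A, 2 of the 9 measured genes were called higher (Csf2 and Ptgs2) and 1 lower (Cxcl5), where 2.5% of 17831 gene names were called, 1.58% higher and 0.914% lower. The median of the 9 was 0.35, against -0.01 over all. On array B, 0 of 8 measured genes were called, where 0.617% of 17518 gene names were (0.32% higher and 0.297% lower), and apart from Cxcl2 at -0.76 the differences lay between -0.24 and 0.19. In hypoxia, 1 of 8 measured genes was called (Cxcl2, lower, a bound), where 4.9% of 17814 gene names were called, 4.43% higher and 0.472% lower. The median of the 8 genes in hypoxia was -0.67, against -0.01 over all, and Cxcl1, Cxcl5, Ccl2 and the brightest Csf1 probe lay between -0.95 and -0.64. The overlapping pair of further Csf1 probes gave -0.21 and -0.31, and the median rests on the brightest probe. The comparisons with control all share 1 control array, so the values are given side by side and no agreement between them is read.

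Against hypoxia, which was at the same oxygen and on the same row of the slide, triple stimuli had 5 of 9 measured genes higher (Csf2, Cxcl2, Ptgs2, Cxcl1 and Ccl2) and 0 lower, where 6.56% of 17084 gene names were called, 3.52% higher and 3.04% lower. The median was 1.57 for the 9 genes and -0.03 over all. Of these 5, Csf2 and Cxcl2 are bounds, since neither was well above background in hypoxia.

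The difference of triple stimuli from control was also compared with the summed differences of the 3 single-stimulus arrays from control, in the 7 genes well above background on all 6 arrays. The comparison uses 5 of the arrays and was added after the data had been seen. For Cxcl1 the sum was -0.74 and triple stimuli 1.44, 2.18 above the sum. For Ptgs2 the sum was 1.59 and triple stimuli 2.19, 0.60 above it, and for Ccl2 the sum was 0.04 and triple stimuli 0.87, 0.83 above it. Cxcl1 was the only one of the 7 genes that was 1 or more from its sum, where 2.27% of 15091 gene names were, 0.928% above and 1.34% below. All 4 differences use the same control array.

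With rapamycin against triple stimuli alone, 3 of 9 measured genes were called lower (Cxcl2, Csf2 and Cxcl1) and 0 higher, where 4.1% of 17266 gene names were called, 1.95% higher and 2.15% lower. The median of the 9 genes was -0.50, against -0.03 over all. Cxcl5 at -0.85 and Ptgs2 at -0.50 were lower by less than 2-fold, and Ccl5 was higher by 0.79. Csf1 on its brightest probe (-0.13), Cxcl10 (-0.10) and Ccl2 (0.00) lay near 0. The overlapping pair of further Csf1 probes differed by -0.34 and -0.50. Compared with control, the array with rapamycin was 0.28 higher for Cxcl1, 0.35 higher for Cxcl2, 1.69 higher for Ptgs2 and 0.87 higher for Ccl2. Cxcl1 and Cxcl2 were thus near their control level with rapamycin, and Csf2, Ptgs2 and Ccl2 were above theirs.

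Genes around these signals were read as lists. Over all measured gene names, 5.11% were called higher and 1.75% lower in triple stimuli against control. With rapamycin against triple stimuli the shares were 1.95% and 2.15%. Lists this small can hold 1 or 2 calls at such shares, so the counts are given as a description. Of 17 NF-kB subunits, inhibitors and kinases, 15 were measured in triple stimuli against control, and 2 were called higher and 0 lower, with a median of 0.48 and 12 of 15 above 0. The 2 were Tnfaip3, which encodes the inhibitor A20, at 1.19, and Relb, a subunit of the noncanonical pathway, at 1.09. On array A the list's median was 0.01 with 0 called, and with rapamycin against triple stimuli it was 0.00 with 0 called, where Tnfaip3 differed by -0.09 and Relb by 0.19.

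Of 34 other inflammatory cytokines, chemokines and injury markers, 22 were not well above background on any array, among them Tnf, Il1a, Il1b, Csf3, Ccl7, Ccl20 and Icam1. In triple stimuli 11 were measured and 2 called, Lif, an IL-6 family cytokine, at 1.15 higher, and Ccl17 at a bound of -1.05. The kidney injury markers Havcr1 (-0.02) and Lcn2 (0.29) were not called. With rapamycin 1 of 10 measured was called, Il11, another IL-6 family cytokine, at 1.01 higher.

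Of 19 receptor genes for the ligands, 11 were not well above background on any array, including Cxcr2 and Ccr2. In triple stimuli 7 were measured and 0 called. Their median of 0.00 is the value of Csf2rb, a bound set to 0, and not a measured lack of change. Csf2ra, a chain of the GM-CSF receptor, was well above background on all 6 arrays and differed by 0.21 in triple stimuli. Ptger4, a prostaglandin E2 receptor, was 1.86 higher with rapamycin than in triple stimuli alone.

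Of 11 factors that bind AU-rich elements and set mRNA decay, 9 were measured in triple stimuli and 0 called, with a median of 0.11 and Zfp36l1, a decay factor, nearest to the line at 0.98. Of 25 interferon-responsive genes, 15 were measured, 2 were called lower (Ifit3 at -2.01 and Xaf1 at -1.09) and 1 higher (Irf7, at least 1.43, on a probe well above background on 1 array), with a median of -0.56. Cxcl10, itself an interferon target, differed by -0.42 in triple stimuli.

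**Figure D4:**
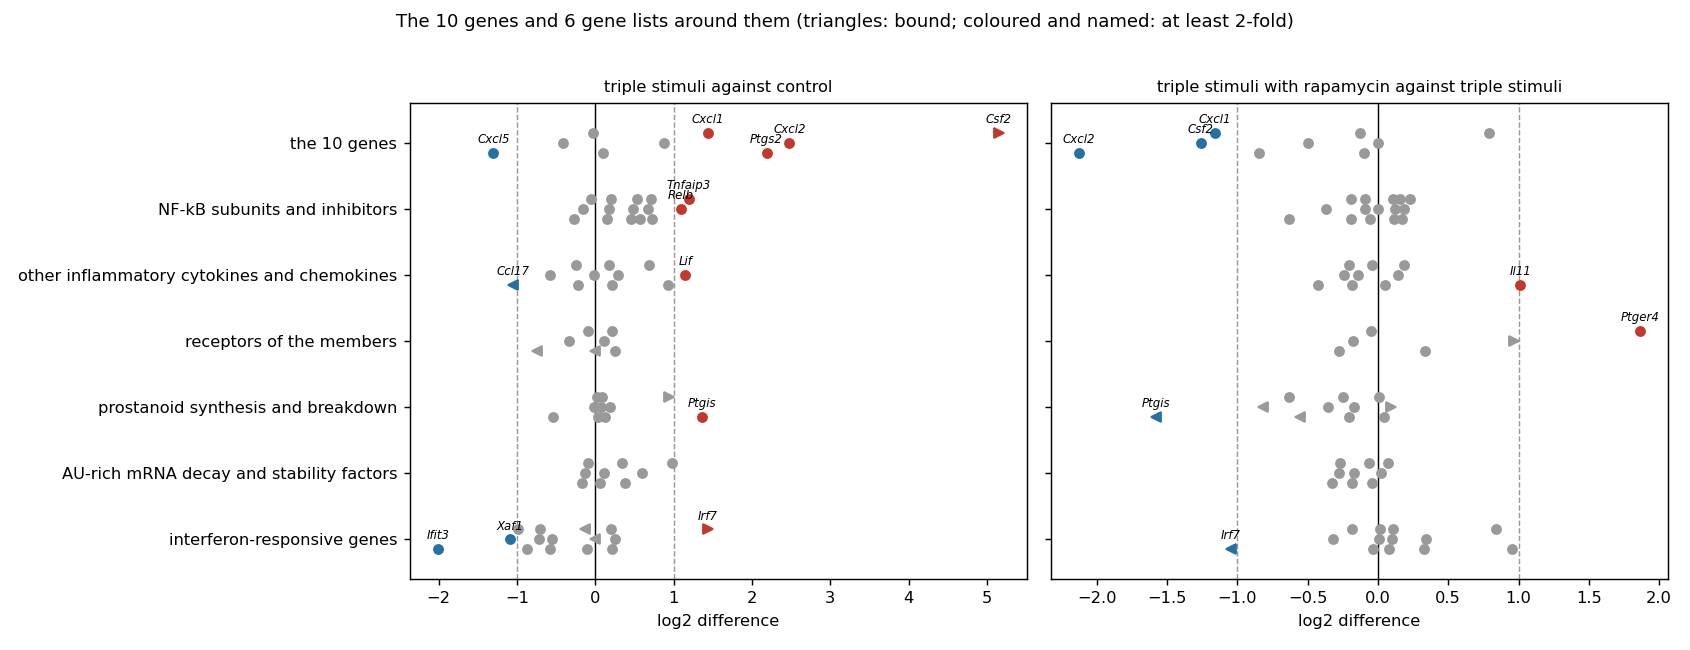
Log2 difference (horizontal axis) in triple stimuli against control (left) and in triple stimuli with rapamycin against triple stimuli (right) for the 10 genes and 6 gene lists (vertical axis). Each point is 1 measured gene, triangles are bounds, and genes at least 2-fold different are named; in triple stimuli the 15 NF-kB genes have a median of 0.48 and the 15 interferon-responsive genes one of -0.56.

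Among markers of other cells, Cd68, a lysosomal protein used as a macrophage marker, moved with some of these genes: it was 1.92 higher on array A and 1.39 higher in triple stimuli than in control. It was 1 of 5 measured leukocyte markers called in each, and the median of the 5 was 0.03 on array A and 0.04 in triple stimuli. The summed scaled signal of all 10 leukocyte markers was 27.7 in control, 26.1 and 27.3 on arrays A and B, 37.9 in hypoxia, 28.3 in triple stimuli and 23.6 with rapamycin. Ptprc, Adgre1, Lyz2 and Ly6g were among those not well above background on any array. Markers of the tubule itself also differed: Aqp1 was lower on array A than in control (-1.19), and Lrp2 (-1.10) and Cdh6 (-1.01) were lower in triple stimuli than in control. With rapamycin against control, Lrp2 was at -1.49, Aqp1 at -1.41, Cdh6 at -1.13 and Ggt1 at 1.17. The summed scaled signal of all 15 proximal tubule markers was 316 in control, 249 and 336 on arrays A and B, 341 in hypoxia, 304 in triple stimuli and 296 with rapamycin. Both sums are mostly the signal of a few bright probes and say little about the dimmer markers. In control these were Cdh16 (6.84), Krt18 (6.70) and Krt8 (6.16) for the tubule, and Csf1r (3.77), Itgam (3.01) and Cd14 (2.04) for leukocytes. The part of these markers in the differences of the 10 genes was not tested. Of 7 fibroblast markers 0 and of 6 endothelial markers 1 (Kdr) were well above background on all 6 arrays.

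Patterns like those of the members were sought among 10242 genes well above background on all 6 arrays with a proper gene symbol (no accessions, clones or gene predictions), by the root mean square (RMS) difference of the 6 log2 levels after centring each gene, for the 5 members with a range of at least 1 and well above background on all 6 arrays. Nearest to Ptgs2 were Dusp4, a phosphatase of MAP kinases (RMS 0.13), Gadd45a, a stress and growth arrest gene (0.13), and Arid5a, an RNA-binding protein (0.19), which in triple stimuli against control were higher by 1.83, 2.08 and 2.52. Nearest to Cxcl1 were Slc14a1, a urea transporter (0.16), Aptx (0.24) and Phlda1 (0.25). Nearest to Ccl2 were Zfp566 (0.05), Hectd2 (0.06) and Vgf (0.11). Nearest to Cxcl5 were Pik3r3 (0.27), Akr1c19 (0.29) and Mest (0.29), and nearest to Ccl5 Diap2 (0.12), Slc25a27 (0.12) and Dnahc7b (0.13). With 6 points per gene and this many genes, near matches are a description of these arrays.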

How the data were processed

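The authors hybridised Cy3-labelled RNA and extracted each spot's intensity with Agilent Feature Extraction 10.7.3.1, per the submitters' processing notes. Per the file headers, that software subtracted the background, and the deposited intensity values are linear and were not scaled between arrays. The deposited value table gives a linear ratio for each probe, which equals the scanner signal over 1 constant per array. This scale was read from the ratios, which are not centred per gene and have column medians between 0.0505 and 0.0562. Probe positions are those of the files (mm9). Exon and UTR annotation of that build was not used here.

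Analyses started from the scanner signals, scaled as described above, in Python 3.11.15 (pandas 2.3.3, numpy 2.4.6), with R 4.3.3 and limma 3.58.1 for the alternatives (quantile normalization; normexp with offset 50). Spots marked as outliers were left out of probe means and are shown. A gene's value was that of its brightest probe on average over the 6 arrays. The calling was tested on simulated data made from the control array with added noise, with bright genes shifted well past the 2-fold line. Background marks were the same on every simulated array, so the test did not touch the bounds. With 1 array per condition no test was possible. Named were all members with every probe, up to 4 genes per list at least 2-fold different in triple stimuli, and the 3 genes most like each eligible member; genes named outside this rule were chosen after their values were seen. The members, the 6 lists and the marker lists were chosen with earlier results of these data known. The alternatives tried were 2 other scalings, normexp, 2 treatments of dim probes, outlier spots kept, the mean over probes, the value table, removal of the median of each band of 64 spot rows, and a 1.5-fold threshold.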

Additional observations from a re-analysis of the deposited data

How the results depend on the processing

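Of 585 member differences recomputed under 9 alternatives, 525 moved by less than the median spread between spots, 60 by more, and 0 called differences changed sign. Many of the 525 could not move. The value table differs from the scanner signal by 1 constant per array, and the treatments of dim probes touch only bounds. Keeping outlier spots can change only Ccl2 and Csf2, and the mean over probes only Csf1 and Cxcl10. The count of 525 is thus no measure of how stable the values are. Of 21 calls, 1 was lost where a value could be computed (Cxcl2 in hypoxia, -0.35 with normexp), and 2 were gained, both for Cxcl10 with the mean over its probes (-1.09 on array A; 1.23 above the sum of the single differences). With only genes well above background on both arrays, 6 calls had no value because they were bounds. They were Csf2 on array A, in triple stimuli and with rapamycin against control, Cxcl2 in hypoxia, and both genes in triple stimuli against hypoxia. In that setting the count of members called went from 1 to 0 in hypoxia and from 5 to 3 in triple stimuli against hypoxia. It also fell on array A and in triple stimuli against control, by the call of Csf2. These falls come from the bounds no longer being measured, so fewer members were measured as well as called. With normexp the count in hypoxia was also 0, there because Cxcl2 fell short of 2-fold. At 1.5-fold, the counts went from 3 to 5 of 9 on array A (10.5% of all gene names called at 1.5-fold), from 0 to 1 of 8 on array B (3.23%), from 1 to 5 of 8 in hypoxia (11.1%) and from 3 to 5 of 9 with rapamycin against triple stimuli (9.12%). Over all gene names, triple stimuli against control had 910 higher and 311 lower calls, against 519 and 117 with normexp, 493 and 229 with both arrays well above background, and 968 and 728 without a floor. Under the alternatives run, the median difference of all gene names stayed within 0.049 of 0. Csf2 depends most on how dim signals are treated: without a floor its difference in triple stimuli was 5.92 and on array A 3.90. With normexp, Cxcl2 on array B against control was -0.24. With the mean over its probes, Csf1 was -0.13 in hypoxia and 0.51 in triple stimuli against control. The means over probes of Csf1 and of Cxcl10 each take in a probe that was not well above background on any array. Differences of those probes are at background level, so these means are not read as changes of the genes. No paired analysis was possible because each condition has 1 array. Signal over background limits Il6, Ccl5 and the dim arrays of Csf2 and Cxcl2.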
